A study of Homo sapiens with 4 samples.

Results

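Short cassette exons of 28 to 75 nt were examined in human MDA-LM2 cells that had received an SSE mimetic RNA or a scrambled oligo. They were chosen by length alone from the skipped exons listed for both groups, and each had at least 10 reads specific to inclusion or skipping in each group. This gave 714 exons of 584 genes out of 8228 tested exons of any length. Another 6883 short exons were listed but had fewer reads in at least 1 group, so 9.40% of the 7597 listed short exons could be examined. The lower bound of the window separates these exons from microexons, and the upper bound comes from the reads. No shared read was recorded for any of 672 events whose longest flanking exon had 75 nt or less, whereas 17 of 47 events with a longest flanking exon of 76 nt had such reads, which fits reads of 76 nt. A read of that length cannot lie inside an exon of 75 nt or less, so every inclusion read of the 714 exons crossed a splice junction, as every skipping read did.

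MDA-LM2 is a lung-metastatic derivative of the MDA-MB-231 breast cancer line. All cells were transfected by lipofection, 2 samples with a scrambled oligo and 2 with an SSE mimetic, and total RNA was extracted with an on-column DNase step. SSE stands for structural splicing enhancer, an RNA hairpin that the study linked to SNRPA1, a U2 snRNP protein, and the comparison asks how splicing differed when cells received a short RNA of that kind. The deposited values were 1 read set per group with no value for either sample, so no spread between samples could be calculated and each interval below covers the reads of 1 set only. No label tells if the 2 samples of each group were separate cultures, and expression levels were not analysed here, so the identity of the line was not checked against markers.

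The spliceosome usually recognises an exon as a unit, with U1 snRNP at the donor site after the exon and U2 snRNP at the branch point before it, held together by proteins bound to enhancers inside the exon. A short exon leaves little room for this arrangement, and many short exons depend on regulators bound in the neighbouring introns and are included in some tissues only. A short exon whose length is a multiple of 3 adds or removes a few amino acids without shifting the reading frame, while skipping of any other coding exon changes the frame downstream.

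The sequences of 8 of the 9 exons called different between the sets are shown first, since the bases at the donor end pair with U1 snRNA. They were read from GENCODE 29 transcripts (GRCh38) at the exact exon coordinates. Each is written 5′ to 3′ on the transcribed strand in lower case, and capitals mark the last 3 bases of the exon. The first 5 belong to exons called lower in the SSE mimetic set. Those of PSMA4, HSPA9 and SPINT2 had no skipping read in either set.
PSMA4 (chr15:78542177-78542219, + strand, coding): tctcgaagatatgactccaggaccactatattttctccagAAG
HSPA9 (chr5:138567649-138567722, - strand, coding): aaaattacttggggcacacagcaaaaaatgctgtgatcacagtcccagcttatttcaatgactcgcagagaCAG
SPINT2 (chr19:38287876-38287935, + strand, coding): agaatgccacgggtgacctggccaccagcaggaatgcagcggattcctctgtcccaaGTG
CCDC43 (chr17:44680585-44680643, - strand, coding): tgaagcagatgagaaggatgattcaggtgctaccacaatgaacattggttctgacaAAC
GTF2H2C (chr5:69566589-69566625, + strand, coding): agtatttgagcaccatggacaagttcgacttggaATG
The next 3 belong to exons called higher in the SSE mimetic set, of which that of VCL had no skipping read in either set.
GNAS (chr20:58898941-58898985, + strand, coding): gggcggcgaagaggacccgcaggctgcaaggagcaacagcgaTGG
VCL (chr10:74043083-74043153, + strand, coding): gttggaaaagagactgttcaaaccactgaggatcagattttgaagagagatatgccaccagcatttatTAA
GTF2I (chr7:74718879-74718941, + strand, coding): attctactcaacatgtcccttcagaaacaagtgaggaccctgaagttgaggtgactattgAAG

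Short exons were mostly either included or skipped in nearly all transcripts. Inclusion is given as Ψ, the fraction of a gene's transcripts that hold the exon as estimated by MISO, with its 95% credible interval. In the scrambled read set 409 short exons had a Ψ of 0.9 or more, 175 were below 0.1 and 130 lay between. With the SSE mimetic the same classes held 224, 166 and 324 exons. The median Ψ was 0.84 in the SSE mimetic set and 0.93 in the scrambled set, beside 0.82 and 0.89 over all tested exons. The 279 short exons without a skipping read in either set also had medians of 0.90 and 0.98. Their median number of isoform-specific reads was 18 in the SSE mimetic set and 106 in the scrambled set. The part of read depth in the shift between classes was not tested.

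Few short exons differed by the authors' evidence. An exon was called when the authors' deposited table gave a Bayes factor of at least 10 and the difference in Ψ, SSE mimetic minus scrambled, was at least 0.1 either way. Of the 714 short exons, 3 were called higher, 6 lower and 705 were not called. Over all 8228 tested exons the rule called 3.99%, with 3.1% higher and 0.887% lower. Among short exons the shares were 0.420% higher and 0.840% lower, so the share called lower was near the background and the share called higher was below it. The median difference in Ψ was -0.03 in short exons (quartiles -0.08 and 0.02) and -0.03 over all tested exons (quartiles -0.09 and 0.03).

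**Figure D1:**
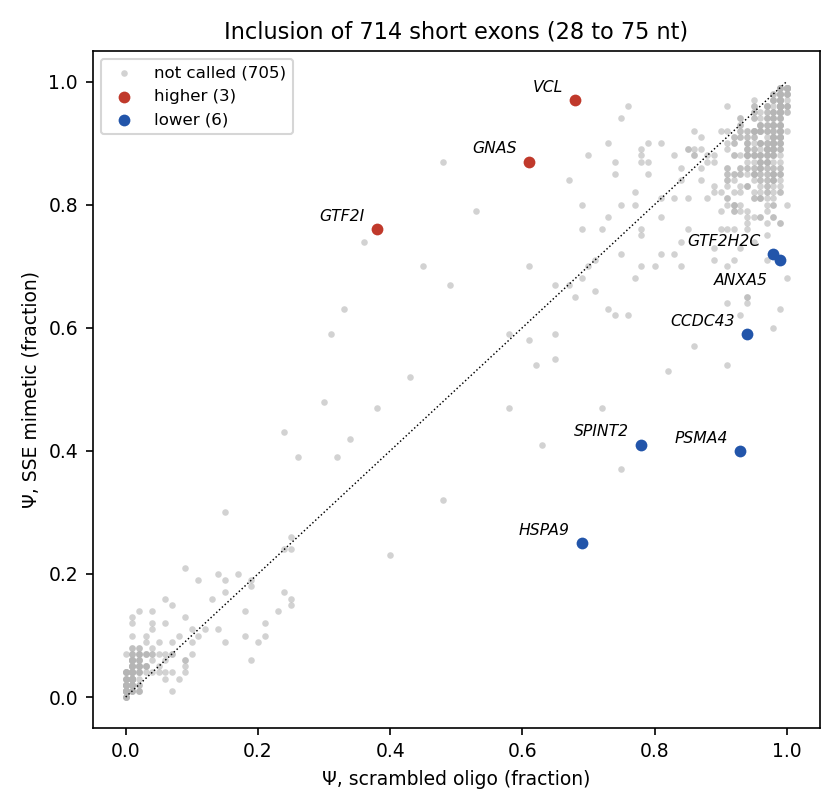
Each point is 1 of the 714 short exons, with Ψ in the scrambled read set on the horizontal axis and Ψ in the SSE mimetic read set on the vertical axis (both fractions); the dotted line marks equal values. The 3 exons called higher lie above the line, the 6 called lower lie below it, and most of the 705 others lie near either end of the line.

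Precision was limited in the SSE mimetic set. The median short exon had 18 isoform-specific reads there and 108.5 in the scrambled set. The median width of the credible interval was 0.24 in the SSE mimetic set and 0.07 in the scrambled set. A further 172 short exons differed by 0.1 or more in Ψ without being called, 28 of them upwards and 144 downwards. Exons of any length leaned downwards too. Differences of any size were below 0 in 465 short exons and above 0 in 214, against 5200 and 2749 over all tested exons.

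Of the 6 exons called lower by Ψ, those of PSMA4, HSPA9 and SPINT2 are described first. PSMA4 encodes an alpha subunit of the proteasome core. Its 43-nt exon had a Ψ of 0.40 (0.24 to 0.60) in the SSE mimetic set and 0.93 (0.83 to 0.99) in the scrambled set, and the 2 intervals did not overlap. The difference was -0.53 with a Bayes factor of 4549890 in the authors' deposited table, the highest Bayes factor among the called short exons. HSPA9 encodes mortalin, the mitochondrial member of the HSP70 chaperones. Its 74-nt exon had a Ψ of 0.25 (0.15 to 0.37) in the SSE mimetic set and 0.69 (0.58 to 0.79) in the scrambled set. The difference was -0.44 with a Bayes factor of 1765.71 in the authors' deposited table. SPINT2 encodes a Kunitz-type inhibitor of membrane serine proteases. The Ψ of its 60-nt exon was 0.41 (0.27 to 0.58) in the SSE mimetic set and 0.78 (0.65 to 0.91) in the scrambled set, with a difference of -0.37 and a Bayes factor of 439.81 in the authors' deposited table. The intervals of the 2 sets did not overlap for HSPA9 or for SPINT2.

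None of these 3 exons had a skipping read in either set. PSMA4 had 20 inclusion reads in the SSE mimetic set and 168 in the scrambled set, HSPA9 had 18 and 223, and SPINT2 had 21 and 150. The Ψ of such an exon rests on inclusion reads set against reads shared by both forms, which lie in the flanking exons. There were 6.85 shared reads per inclusion read of PSMA4 in the SSE mimetic set against 2.55 in the scrambled set, 9.0 against 3.10 for HSPA9 and 6.52 against 3.25 for SPINT2. The share of inclusion reads among inclusion and skipping reads was 100% in both sets for all 3. The part of uneven read coverage along these transcripts in the differences was not tested.

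ANXA5 encodes annexin A5, which binds phosphatidylserine in the presence of calcium. Its 44-nt exon (chr4:121696581-121696624, - strand), coding in part, had a Ψ of 0.71 (0.52 to 0.90) in the SSE mimetic set and 0.99 (0.97 to 1.00) in the scrambled set. The authors' deposited table gave a difference of -0.28 and a Bayes factor of 38.02. The reads were 48 for inclusion and 183 shared in the SSE mimetic set, and 303 for inclusion and 241 shared in the scrambled set, again with no skipping read. ANXA5 thus had more inclusion reads in the SSE mimetic set than the other 3 exons without skipping reads that were called lower, and the same pattern of more shared reads per inclusion read.

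The other lower exons, of CCDC43 and GTF2H2C, had skipping reads in both sets. The 59-nt exon of CCDC43, a coiled-coil protein, had a Ψ of 0.59 (0.36 to 0.80) in the SSE mimetic set and 0.94 (0.88 to 0.98) in the scrambled set. Inclusion reads numbered 10 against 3 skipping reads in the SSE mimetic set and 100 against 4 in the scrambled set. The inclusion share was therefore 76.9% and 96.2%, and the difference of -0.192 had a 95% Newcombe interval of -0.465 to -0.033. A longer form of this exon begins 9 bases further upstream at the acceptor side, and those bases are in capitals here.
CCDC43 long form (chr17:44680585-44680652, - strand): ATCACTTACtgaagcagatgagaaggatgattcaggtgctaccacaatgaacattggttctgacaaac
The 68-nt form had a Ψ of 0.54 in the SSE mimetic set and 0.91 in the scrambled set, from 8 and 78 inclusion reads and the same 3 and 4 skipping reads. Its Bayes factor was 4.64 in the authors' deposited table, against 99.15 for the 59-nt form. Both forms thus pointed the same way, and they share their skipping reads and part of their inclusion reads.

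GTF2H2C is a copy of the gene for a TFIIH subunit that acts in transcription initiation and DNA repair. Its 37-nt exon had a Ψ of 0.72 (0.51 to 0.88) in the SSE mimetic set and 0.98 (0.95 to 0.99) in the scrambled set, from 12 inclusion and 2 skipping reads against 155 and 2. The homologous exon of GTF2H2B had the same counts of inclusion and skipping reads in both sets and Ψ values of 0.75 and 0.97. Shared reads were equal for the copies as well, with 5 in the SSE mimetic set and 12 in the scrambled set. The authors' deposited table gave a Bayes factor of 72.90 for GTF2H2C and 4.75 for GTF2H2B. Equal counts in these read classes thus gave Bayes factors on both sides of the value used for a call. The call of GTF2H2C is therefore uncertain, and the cause of the different Bayes factors was not tested. Reads of the 2 copies could not be told apart, so which gene differed is uncertain.

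The 3 exons called higher by Ψ were those of GNAS, GTF2I and VCL. GNAS encodes the alpha subunit of the stimulatory G protein, and its 45-nt exon separates the long and short forms of that subunit. Its Ψ was 0.87 (0.71 to 0.98) in the SSE mimetic set and 0.61 (0.52 to 0.70) in the scrambled set. With the SSE mimetic 18 reads included the exon and 1 skipped it, and in the scrambled set 106 included it and 36 skipped it. The inclusion share was 94.7% and 74.6%, and the difference of 0.201 had a 95% interval of -0.003 to 0.290. Of the 9 called short exons it had the lowest Bayes factor, 10.67, in the authors' deposited table.

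GTF2I encodes TFII-I, a transcription factor that also acts in signalling from cell surface receptors. Its 63-nt exon had a Ψ of 0.76 (0.58 to 0.91) in the SSE mimetic set and 0.38 (0.26 to 0.51) in the scrambled set. Reads numbered 23 for inclusion and 3 for skipping in the SSE mimetic set, and 32 and 20 in the scrambled set. The inclusion share was 88.5% and 61.5%, a difference of 0.269 (0.058 to 0.425). The authors' deposited table gave a Bayes factor of 173.90. GTF2I has 16 annotated pseudogenes, and reads may have been split among copies, which makes this value uncertain.

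VCL encodes vinculin, which links integrins and cadherins to actin. Its 71-nt exon had a Ψ of 0.97 (0.89 to 1.00) in the SSE mimetic set and 0.68 (0.58 to 0.80) in the scrambled set. The authors' deposited table gave a difference of 0.29 and a Bayes factor of 541.45. No read skipped the exon in either set. The reads were 76 for inclusion and 169 shared in the SSE mimetic set, and 145 for inclusion and 1018 shared in the scrambled set. VCL therefore had 2.22 shared reads per inclusion read in the SSE mimetic set and 7.02 in the scrambled set, the opposite order from PSMA4, HSPA9 and SPINT2.

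**Figure D2:**
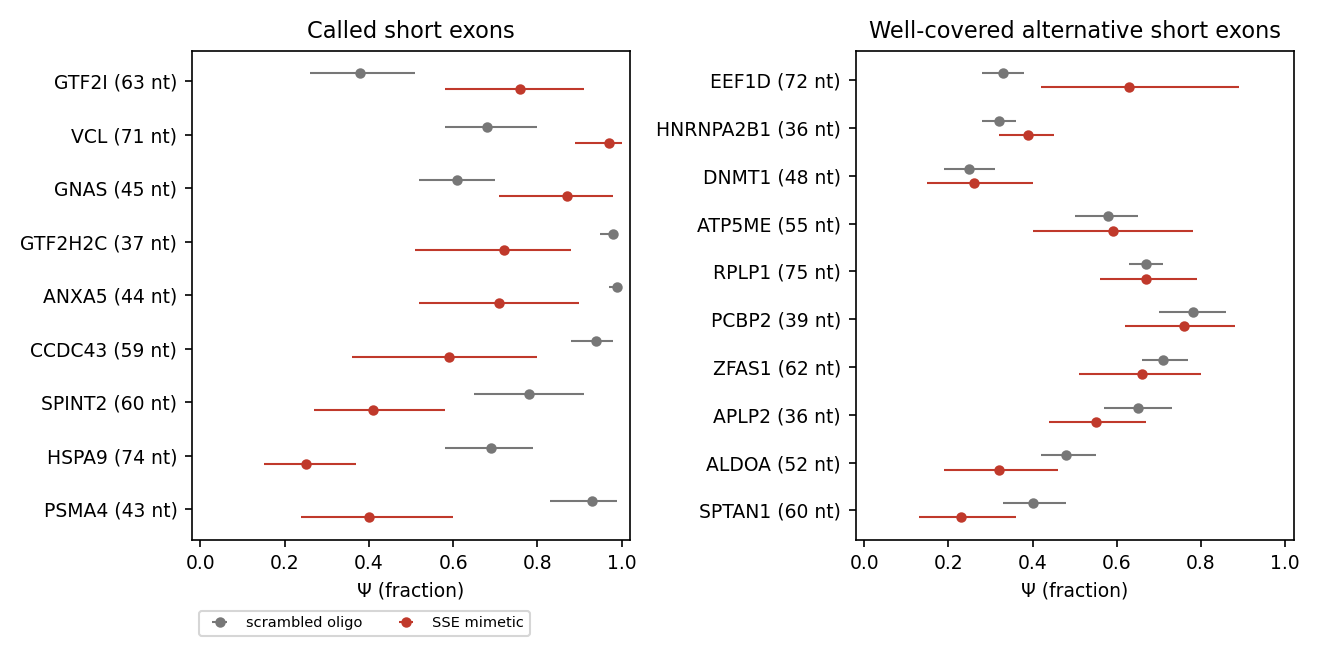
Points give Ψ (fraction) and bars its 95% credible interval in the SSE mimetic read set (red) and the scrambled read set (grey), for the 9 called short exons on the left and 10 well-covered alternative short exons on the right, with lengths in parentheses. The 2 intervals are apart for every called exon on the left, while on the right only EEF1D has intervals that are apart. The exons on the left were picked by the same estimates, so their separate intervals are no further evidence. Intervals were apart in 14 of the 714 short exons and in 483 of all 8228 tested exons.

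Inclusion and skipping reads were also compared on their own. Fisher's exact test (two-sided) compared these reads between the 2 read sets, with Benjamini-Hochberg adjustment over all 8228 tested exons. It compares the read sets and not the conditions, since each group is 1 read set. No short exon passed at an adjusted p of 0.05, against 83 of all tested exons, or 1.01%. At an unadjusted p under 0.05 there were 16 short exons, or 2.24%, beside 5.51% of all tested exons. The test cannot find a difference where neither set has a skipping read, which held for 279 short exons, 5 of the 9 called ones among them, and for 4509 of all tested exons. Over the exons with a skipping read the shares at an unadjusted p under 0.05 were 3.68% of 435 short exons and 12.2% of 3719 exons of any length. Of these 16, 7 had a larger inclusion share in the SSE mimetic set and 9 a smaller one, while over all tested exons 404 were larger and 49 smaller. The 9 count some reads more than once. They hold GTF2H2B and GTF2H2C, with the same counts, and both forms of the CCDC43 exon, which share reads.

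The lowest p values in short exons belonged to SPTAN1, NVL and BIRC5, picked for naming with their values in view. SPTAN1 encodes alpha-II spectrin of the membrane skeleton, and its 60-nt exon keeps the frame and adds a stretch of residues to a spectrin repeat.
SPTAN1 (chr9:128592983-128593042, + strand, coding): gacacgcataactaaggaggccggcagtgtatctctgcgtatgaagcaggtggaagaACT
With the SSE mimetic 11 reads included this exon and 18 skipped it, and in the scrambled set 94 included it and 44 skipped it. The inclusion share was 37.9% against 68.1%, a difference of -0.302 (-0.470 to -0.104) with an exact p of 0.00305 and an adjusted p of 0.146. The Ψ was 0.23 (0.13 to 0.36) and 0.40 (0.33 to 0.48), and the intervals overlapped.

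NVL encodes an ATPase of the AAA family that acts in ribosome assembly in the nucleolus. Its 74-nt exon had 5 inclusion and 6 skipping reads in the SSE mimetic set and 78 and 12 in the scrambled set. The exact p was 0.00379 and the adjusted p 0.164. The Ψ was 0.37 (0.14 to 0.65) against 0.75 (0.63 to 0.85), and the authors' deposited table gave a Bayes factor of 9.47, just under the value used for a call.

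BIRC5 encodes survivin, an inhibitor of cell death that is also needed for chromosome segregation. Its 69-nt exon, included in the form known as survivin-2B, derives from an Alu element. It was included by 8 reads and skipped by 15 in the SSE mimetic set, and included by 17 and skipped by 142 in the scrambled set. The inclusion share was 34.8% against 10.7%, with an exact p of 0.00511 and an adjusted p of 0.204. The Ψ was 0.16 (0.07 to 0.28) and 0.06 (0.04 to 0.09), and the 2 intervals overlapped.

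Among the rest of the 16, SH3D19, BRCC3 and PICALM had a larger inclusion share in the SSE mimetic set. SH3D19, an adaptor with SH3 domains, had 11 inclusion and 0 skipping reads in the SSE mimetic set and 28 and 19 in the scrambled set for its 69-nt exon (exact p 0.0107, adjusted p 0.350). BRCC3, a deubiquitinase of the BRCA1-A complex, had 18 and 7 reads against 21 and 26 for its 75-nt exon (exact p 0.0459, adjusted p 0.854). PICALM, a clathrin assembly protein, had 31 and 1 reads against 212 and 43 for its 60-nt exon (exact p 0.0390, adjusted p 0.788). None of the 3 was called.

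Another 5 of the 16 lay in decay transcripts, meaning transcripts annotated for nonsense-mediated decay, or in coding exons with few reads. In ATP5MG, a subunit of ATP synthase, a 53-nt exon of a decay transcript had an inclusion share of 0% in the SSE mimetic set and 8.09% in the scrambled set (exact p 0.0177, adjusted p 0.467). In PLOD2, a collagen lysyl hydroxylase, a 61-nt exon of a decay transcript had 0% and 26.8% (exact p 0.0340, adjusted p 0.721). In TECR, a reductase of long-chain fatty acid synthesis, a 67-nt exon of a decay transcript had 8.82% and 0% (exact p 0.0406, adjusted p 0.803). The exons of ATP5MG and PLOD2 thus had the smaller share in the SSE mimetic set and that of TECR the larger. NRDC, a metalloprotease, had 30.8% and 6.86% for its 70-nt coding exon (exact p 0.0212, adjusted p 0.521), and CIAO2A, a factor of iron-sulfur protein assembly, had 81.8% and 100% for its 50-nt coding exon (exact p 0.0468, adjusted p 0.867). None of these 5 was called.

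Part of the short exons with reads for both forms were measured well enough to bound a difference. Of the 340 short exons with both inclusion and skipping reads, 116 had a 95% interval of the difference in inclusion share that was at most 0.2 wide. That interval included 0 in 113 of them, lay above 0 in 1 (PICALM) and below 0 in 2 (ATP5MG and ENO1). The largest difference in these 116 exons was 0.137, again in PICALM. A narrow interval is easier to reach where nearly all reads of both sets are of the same form, and such exons have little room to differ. The same count was not made over all tested exons, so it cannot be read as a trait of short exons.

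Among known switch exons, those of HNRNPA2B1, DNMT1, APLP2 and PCBP2 are described because they were well covered and alternative in these cells, with Ψ between 0.2 and 0.8 and skipping reads in both sets, and all but HNRNPA2B1 were chosen after their values were seen. The sequences of 3 of them follow.
HNRNPA2B1 (chr7:26197831-26197866, - strand, coding): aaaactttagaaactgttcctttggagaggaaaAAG
APLP2 (chr11:130137256-130137291, + strand, coding): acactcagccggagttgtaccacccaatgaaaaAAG
PCBP2 (chr12:53467805-53467843, + strand, coding): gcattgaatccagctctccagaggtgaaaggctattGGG
HNRNPA2B1 encodes an RNA-binding protein, and its 36-nt exon adds a stretch near the N-terminus to make the B1 form. Its Ψ was 0.39 (0.32 to 0.45) in the SSE mimetic set and 0.32 (0.28 to 0.36) in the scrambled set. Inclusion and skipping reads numbered 81 and 102 against 203 and 340, and the difference in inclusion share was 0.069 (-0.013 to 0.151).

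DNMT1 encodes the maintenance DNA methyltransferase, and its 48-nt exon resembles an Alu element. Its Ψ was 0.26 (0.15 to 0.40) in the SSE mimetic set and 0.25 (0.19 to 0.31) in the scrambled set.

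APLP2 encodes a relative of the amyloid precursor protein. Its 36-nt exon had a Ψ of 0.55 (0.44 to 0.67) and 0.65 (0.57 to 0.73). The inclusion and skipping reads were 46 and 21 in the SSE mimetic set and 126 and 38 in the scrambled set (exact p 0.244). PCBP2 encodes a poly(C)-binding protein, and its 39-nt exon had a Ψ of 0.76 in the SSE mimetic set and 0.78 in the scrambled set. The intervals of the 2 sets overlapped for all 4 of these exons.

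Other well-covered exons that were alternative by Ψ showed where Ψ and the junction reads differ. RPLP1, an acidic protein of the ribosomal stalk, had a 75-nt exon with a Ψ of 0.67 in both sets but inclusion shares of 99.5% and 99.4%. ALDOA encodes the glycolytic enzyme aldolase A, and a 52-nt exon in its 5′ UTR had a Ψ of 0.32 (0.19 to 0.46) in the SSE mimetic set and 0.48 (0.42 to 0.55) in the scrambled set. The inclusion share of the ALDOA exon was 64.3% and 65.7%. EEF1D encodes a subunit of the translation elongation factor that reloads eEF1A, and its 72-nt exon had a Ψ of 0.63 (0.42 to 0.89) and 0.33 (0.28 to 0.38). EEF1D had 32 inclusion and 1 skipping reads against 190 and 17, and the authors' deposited table gave a Bayes factor of 8.50. Its inclusion share was 97.0% and 91.8%, so few junction reads skipped the exons of RPLP1 and EEF1D. In these 3 genes the 2 measures thus gave different levels or differences, and the part of shared reads in that was not tested.

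ZFAS1, a noncoding RNA gene that hosts small nucleolar RNAs, had a 62-nt exon with a Ψ of 0.66 (0.51 to 0.80) and 0.71 (0.66 to 0.77). Among other coding switch exons, VEGFA (30 nt) had 0.68 and 0.69, PRMT1 (54 nt) 0.24 and 0.25, EPHA2 (68 nt) 0.70 in both sets, and MBNL1 (54 nt) 0.20 and 0.17 (SSE mimetic set first). VEGFA encodes the growth factor of blood vessels, PRMT1 an arginine methyltransferase, EPHA2 a receptor tyrosine kinase and MBNL1 a splicing regulator whose short exon affects its entry into the nucleus. They were chosen after their values were seen and do not stand for the rest: in the 36 short exons of genes with known short or switchable exons the difference ran from -0.21 to 0.18, and 2 of them had an unadjusted p under 0.05 in Fisher's exact test.

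Over all 39 short exons with a Ψ of 0.2 to 0.8 and skipping reads in both sets, the median difference in Ψ was 0.00 (quartiles -0.07 and 0.075), with 1 called higher (GTF2I) and 0 lower. Exons of any length under the same condition numbered 502, with a median of 0.07, 36 called higher and 3 lower. By mean Ψ of the 2 sets, 43 short exons lay from 0.1 to 0.5 and had a median difference of 0.01, with 0 called higher and 1 lower (HSPA9). The 922 exons of any length in that range had a median of 0.13, with 167 called higher and 11 lower. Short exons make up part of each of those totals, and no test of the difference was run.

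The share of exons called differed with exon length. Of 925 exons of 76 to 100 nt, 0.541% were called higher and 0.757% lower, close to the short exons. The share called higher was 1.93% at 101 to 150 nt, 3.98% at 151 to 200 nt, 4.37% at 201 to 300 nt and 7.81% above 1000 nt. The share called lower stayed between 0.611% and 0.952% in every bin from 28 to 1000 nt and was 1.76% above that. None of the 61 exons of 27 nt or shorter was called. Within the window, the 67 exons of 28 to 39 nt had 0 called higher and 1 lower (GTF2H2C), and the 293 exons of 64 to 75 nt had 1 and 1 (VCL and HSPA9).

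**Figure D3:**
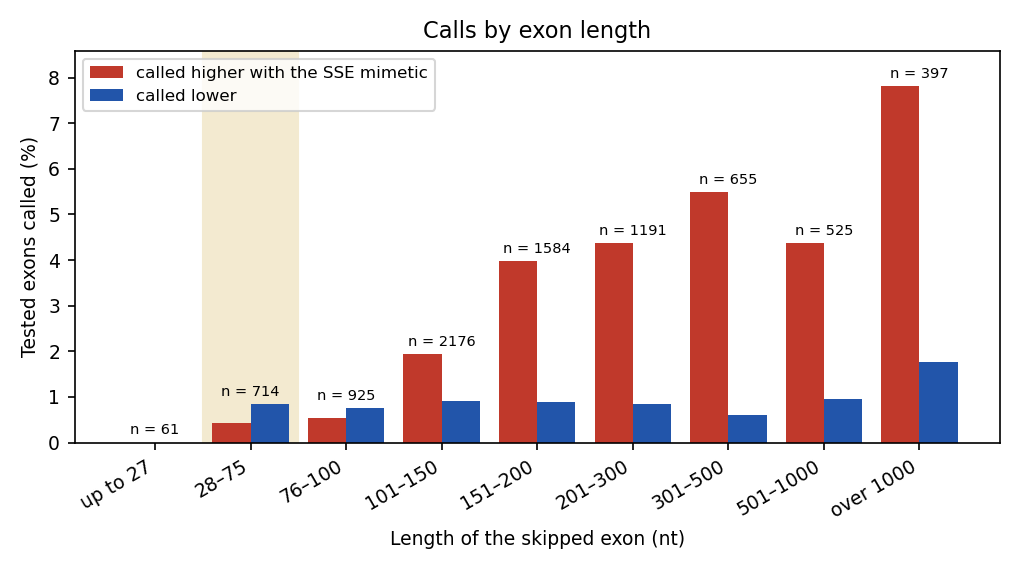
Bars give the percentage of tested exons called higher (red) or lower (blue) in the SSE mimetic set in each length bin (nt), with the number of exons above; the shaded bin holds the short exons. The share called higher is 0.420% at 28 to 75 nt and 7.81% above 1000 nt.

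At the edges of the window single exons did not stand out. The 1 exon of 28 nt, in PLAU, the urokinase-type plasminogen activator, had a Ψ of 0.67 in the SSE mimetic set and 0.65 in the scrambled set. The 6 exons of 27 nt had a median difference of 0.00, the 32 of 75 nt a median of -0.035 and the 25 of 76 nt a median of -0.06. None of them was called. Just below the window, the best covered exon had 27 nt and belonged to UQCRH, a subunit of respiratory complex III, with a Ψ of 0.97 in both sets.

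Summed reads also differed with exon length. Summed over the 714 short exons, there were 17863 inclusion and 6396 skipping reads in the SSE mimetic set and 112735 and 40414 in the scrambled set. The inclusion share of these sums was 73.6% in both sets. The scrambled set thus held 6.31 times as many inclusion reads and 6.32 times as many skipping reads. In exons of 76 nt or longer, where an inclusion read can also lie inside the exon, these ratios were 4.54 and 6.81, and the inclusion share was 90.8% in the SSE mimetic set and 86.8% in the scrambled set. These sums weight exons by their reads and compare 2 read sets without replicates.

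Exon by exon the pattern was similar. Of the 435 short exons with a skipping read in either set, 185 (42.5%) had a larger inclusion share in the SSE mimetic set, 154 (35.4%) a smaller one and 96 an equal one. Of the 3719 exons of any length with a skipping read, it was larger in 68.5% and smaller in 26.1%. The share of exons with a larger inclusion share was 53.4% at 76 to 100 nt, 71.9% at 101 to 150 nt and 84.9% above 1000 nt.

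**Figure D4:**
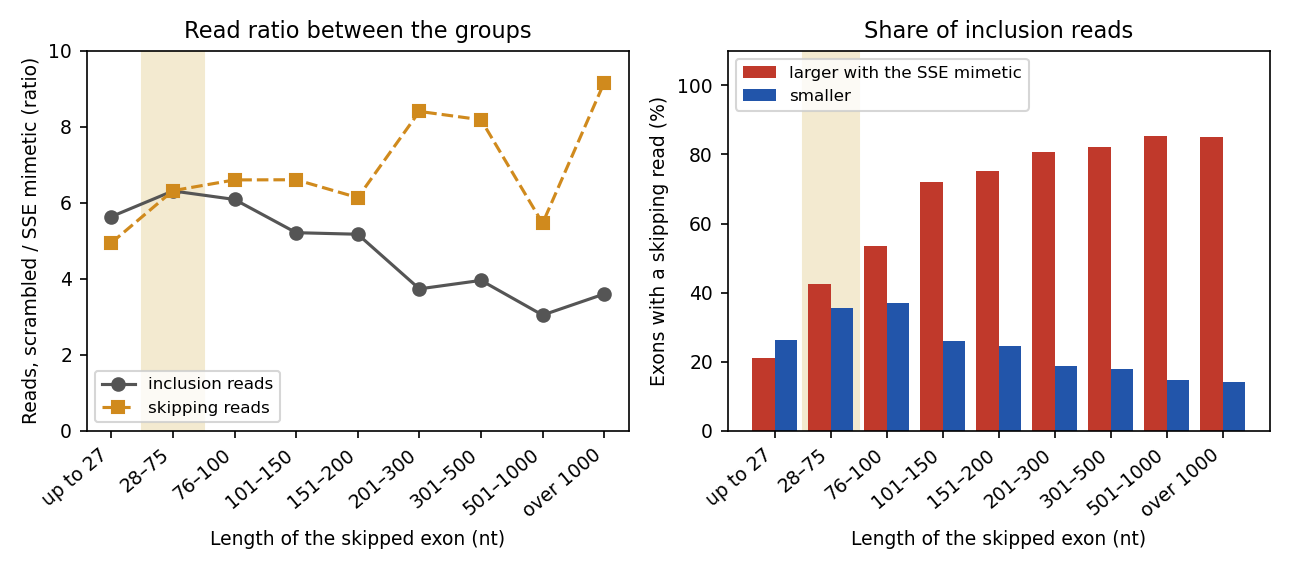
The left panel plots, for each length bin (nt), the ratio of scrambled to SSE mimetic reads for inclusion reads (circles) and skipping reads (squares). The right panel plots the percentage of exons with a skipping read whose inclusion share is larger (red) or smaller (blue) in the SSE mimetic set; the shaded bin holds the short exons, where the 2 ratios are 6.31 and 6.32.

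A further read class moved with the groups. Reads assigned to a gene's region that fitted neither form, which can lie in introns, numbered 17.4 per isoform-specific read in the SSE mimetic set and 6.55 in the scrambled set over the short exons. Over all tested exons these values were 16.1 and 6.26. The part of reads that fitted neither form in the values of short or longer exons was not tested. Depth differed as well: the scrambled set held 6.31 times as many isoform-specific reads over the short exons.

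The short exons without any skipping read leaned downwards, as exons of any length without one did. There were 279 of them, with a median difference in Ψ of -0.07, 1 called higher and 4 lower, and 263 of the 279 differences were below 0. The 435 with a skipping read had a median of 0.00, with 2 called higher and 2 lower, and 202 differences above 0 and 202 below. Of the 9 called short exons, 5 had no skipping read, those of PSMA4, HSPA9, SPINT2, ANXA5 and VCL. Over the 4509 tested exons of any length without a skipping read, the median was -0.06. Of these, 44 (0.976%) were called higher and 47 (1.04%) lower, and 3648 differences were below 0. The 3719 exons of any length with a skipping read had a median of 0.01, with 211 called higher and 26 lower. The 279 short exons without a skipping read had 5.97 times as many isoform-specific reads and 5.20 times as many shared reads in the scrambled set. The part of depth in these differences was not tested.

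Inclusion of the short exons differed by annotation class. In the coding class, 563 exons had a median Ψ of 0.87 in the SSE mimetic set and 0.95 in the scrambled set. All 9 calls fell in it (1.60%, beside 2.37% of the 5442 coding exons of any length). The 36 exons of 5′ UTRs had medians of 0.055 and 0.025. The 56 exons found in transcripts marked for nonsense-mediated decay had 0.05 and 0.01, and 42 exons of noncoding transcripts of coding genes had 0.05 and 0.02. Of the rest, 9 belonged to noncoding genes and 8 were not annotated. None of the 134 exons of the 5′ UTR, decay and noncoding transcript classes was called. Over all short exons 1.26% were called, all of them coding. The share called over exons of any length was 9.19% in decay transcripts, 7.25% in 5′ UTRs and 6.20% in noncoding transcripts of coding genes. The share called also differed with exon length, and the part of length in this count was not tested. For exons of any length, 82 of 925 in decay transcripts and 35 of 524 in 5′ UTRs were called higher. In noncoding transcripts of coding genes 34 of 597 were, and each of these 3 classes had 3 called lower.

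**Figure D5:**
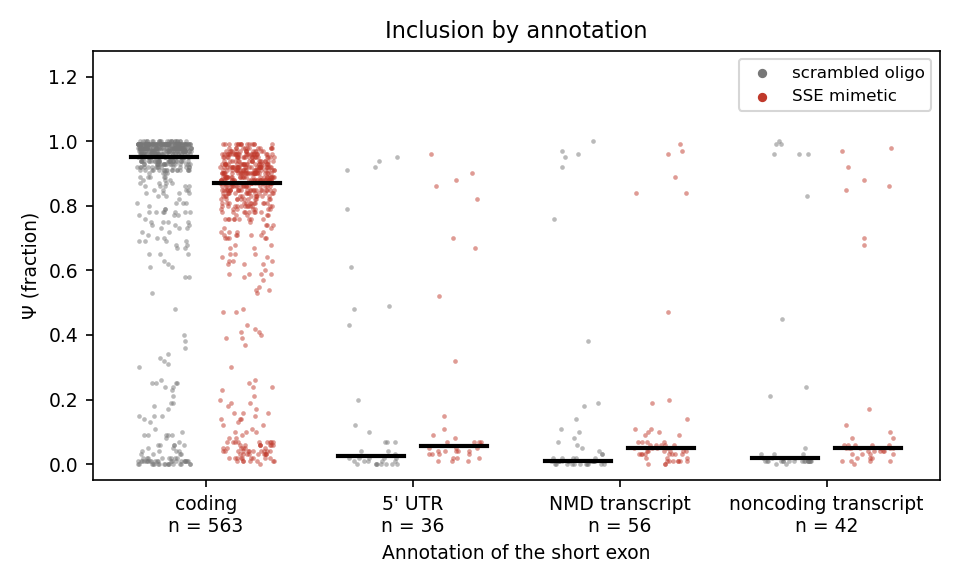
Each point is a short exon, placed by annotation class, with its Ψ (fraction) in the scrambled set (grey) and the SSE mimetic set (red); horizontal bars are medians and points are spread sideways for legibility. Coding exons are mostly near full inclusion (medians 0.95 and 0.87), and the other 3 classes are mostly near 0.

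Some exons of decay transcripts and 5′ UTRs were included in part or nearly in full. CCT5, a subunit of the chaperonin TRiC, had a 73-nt exon with a Ψ of 0.96 (0.86 to 1.00) in the SSE mimetic set and 0.76 (0.66 to 0.86) in the scrambled set, with no skipping read. RBM39, a splicing factor, had a 73-nt exon with a Ψ of 0.20 (0.10 to 0.37) and 0.14 (0.10 to 0.18), from 8 inclusion and 13 skipping reads against 43 and 95. In 5′ UTRs, a 62-nt exon of CD151, a tetraspanin bound to integrins, had a Ψ of 0.67 (0.49 to 0.86) and 0.49 (0.39 to 0.59), and a 74-nt exon of SEC31A, a COPII coat protein, had 0.52 (0.28 to 0.78) and 0.43 (0.33 to 0.53). These 4 were chosen after their values were seen, and none was called.

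Frame differed with the level of inclusion. Of the 563 coding short exons, 287 (51.0%) had a length that was a multiple of 3. Among coding short exons with a scrambled Ψ from 0.1 up to 0.9, 76 of 108 (70.4%, exact 95% interval 60.8 to 78.8) kept the frame. Among those at 0.9 or more, 163 of 386 did (42.2%, exact 95% interval 37.2 to 47.3), and the 2 intervals did not overlap. The same shares in coding exons of 76 nt or longer were 50.1% (47.6 to 52.6) and 42.6% (40.8 to 44.4), and these intervals did not overlap either. Below a scrambled Ψ of 0.1 the frame was kept by 48 of 69 coding short exons (69.6%, 57.3 to 80.1). In coding exons of 76 nt or longer it was kept by 106 of 179 (59.2%, 51.6 to 66.5). Of the 9 called short exons, 3 were multiples of 3, those of GNAS, GTF2I and SPINT2. The median difference in Ψ was -0.04 for the 287 coding short exons that keep the frame and -0.06 for the 276 that do not.

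Base composition of the short exons was close to that of all tested exons, and their flanking introns were shorter. Sequence was available for 705 of the 714. The median GC content was 45.9%, against 47.5% over all tested exons. The last base was G in 76.7% against 80.2%, and the exon ended in AG in 352 of 705 (49.9%) against 56.6%. The flanking introns had a median of 1551 nt upstream and 1528 nt downstream, against 2350 and 2062.5 nt over all tested exons. Short exons without enough reads had medians of 2352 and 2375 nt.

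Motifs were searched on the transcribed strand only, in the exon itself. GAAGAA, a purine-rich sequence of the kind bound by SR proteins, occurred in 52 short exons (7.38%), against 6.49% of the 6552 short exons that had too few reads. None of the 52 was called, where under 1 would be at the 1.26% of all short exons, and their median difference in Ψ was -0.05, the same as over all 563 coding short exons. Nothing about the motif follows from these values. It occurred in 42 of 382 coding short exons with a scrambled Ψ above 0.9 (10.99%) and in 3 of 112 with a Ψ from 0.1 to 0.9 (2.68%). TGCATG, the sequence bound by RBFOX proteins, occurred in 8 short exons (1.13%, against 1.42% of those with too few reads). TAGGG, a sequence bound by HNRNPA1, occurred in 8 short exons (1.13% against 1.43%), among them a 66-nt exon of EIF4G2, a translation initiation factor, with a Ψ of 0.99 in both sets. EIF4G2 was chosen for its many reads. None of the exons with TGCATG or TAGGG was called, and sets of 8 are too small for that count to be read.

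Gene groups held too few short exons for a count of calls to be read. With 1.26% of all short exons called (3.99% of exons of any length), each group would hold under 1 call at that share, so no call in a group says nothing about it. Splicing factors and regulators held 50 short exons of 31 genes, none called, with a median difference of 0.00, while 10 of their 250 exons of any length were called higher and 7 lower. The best covered was a 44-nt exon of HNRNPK, an RNA-binding protein, with a Ψ of 0.99 in both sets. Genes with known short or switchable exons held 36 short exons of 22 genes, none called, with a median of -0.025. Their best covered exon, of 75 nt in APLP2, was skipped in nearly all transcripts, with a Ψ of 0.01 and 0 and no inclusion read against 108 and 710 skipping reads. Cytoskeleton and adhesion genes held 38 short exons of 29 genes, with VCL called higher and a median of -0.025. Their best covered exon, of 63 nt in TPM3 (a tropomyosin that lines actin filaments), had a Ψ of 0.98 and 1.00.

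Ubiquitin and proteasome genes held 34 short exons of 27 genes, with PSMA4 called lower and a median of -0.02. In other proteasome genes, PSMA6 (41 nt) had a Ψ of 0.96 in the SSE mimetic set and 1.00 in the scrambled set, PSMA5 (67 nt) had 0.47 (0.27 to 0.72) and 0.72 (0.59 to 0.86), and a 68-nt exon of PSMC6 had 0.53 (0.33 to 0.74) and 0.82 (0.69 to 0.95). PSMA5 and PSMA6 encode alpha subunits of the core and PSMC6 an ATPase of the cap, and none of the 3 was called; PSMA5 and PSMC6 were chosen after their values were seen. PSMA5 had 16 inclusion and 1 skipping reads against 132 and 2, and PSMC6 had 35 and 198 inclusion reads with no skipping read.

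Translation and ribosome genes held 52 short exons of 43 genes, none called, with a median of -0.015, and of their 363 exons of any length 5 were called higher and 5 lower. A 46-nt exon of RPL36A, a ribosomal protein, found in a decay transcript, had a Ψ of 0 in both sets. Mitochondrial genes held 33 of 27 genes, none called, with a median of -0.04. A 72-nt exon of ATP5PD, a subunit of ATP synthase, had a Ψ of 0.99 in both sets. Membrane traffic genes held 30 of 23 genes, none called, with a median of -0.04, and a 38-nt exon of CLTA, a clathrin light chain, had a Ψ of 0.95 and 1.00. Kinases and phosphatases held 24 of 20 genes (median -0.035), chromatin and transcription regulators 19 of 16 genes (median -0.06), cell death genes 4 of 3 genes (median 0.04) and zinc finger genes 3 of 3 genes (median 0.09), with no call in any of these. The best covered were a 75-nt exon of the phosphatase gene PTP4A2 (Ψ 0.96 and 1.00), a 75-nt exon of EED, a subunit of the Polycomb complex PRC2 (0.11 and 0.14), the BIRC5 exon above and a 74-nt 5′ UTR exon of ZNF146 (0.70 and 0.61). Markers of other cell types held none of the 714 exons.

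The calls were also counted with a looser read minimum. With the minimum of 10 reads asked of the scrambled set alone, 2712 short exons entered, of which 6 (0.221%) were called higher and 30 (1.11%) lower. Over 18530 exons of any length under that minimum, 1.92% were called higher and 1.12% lower. Apart from the 714, another 30 short exons passed the Bayes factor and size with too few reads in 1 or both sets, of which 25 were lower, and 24 of those 25 fell short in the SSE mimetic set alone. In 17 of these 30 the SSE mimetic set had no inclusion read. The direction of these 30 cannot be read, because most had enough reads in the scrambled set alone. The count of lower short exons therefore rested on which set had to reach the minimum, while the share of lower calls stayed near the background in both cases.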

How the data were processed

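RNA-seq reads of 4 samples were processed by the authors with STAR 2.7 against hg38, per the submitters' processing notes. The authors deposited MISO skipped-exon tables, per the file headers: Ψ as a fraction with its 95% interval, reads per class as counts written in text, and a comparison table with the difference in Ψ as a score and the Bayes factor as a ratio (capped at 1e+12). The deposited columns hold 1 read set per group, which was read as a pool of the 2 samples of that group. The MISO version is not given in the sources used here. Coordinates are hg38.

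From 45977 events in both summaries, 39120 distinct skipped exons were formed, keeping for each the event with most isoform-specific reads, and 8228 had at least 10 such reads in each set. Of the 714 short exons, 706 matched a GENCODE 29 exon exactly and 8 were assigned through their flanks. The difference in Ψ equalled the difference of the summaries to within 0.005 in all 45977 events. Inclusion share is inclusion reads over inclusion plus skipping reads; its difference has a Newcombe interval from Wilson limits, and shares of exons have Clopper-Pearson intervals. Fisher's exact test was adjusted by the Benjamini-Hochberg method over all tested exons. All intervals cover counting error only, and reads carried no molecular identifiers.

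The text names every called short exon, the best covered one of each gene list, the 5 best covered ones that were alternative by Ψ and those at the edges of the window. A few exons that this rule or the plots would name are not reported here. The short exons, the 12 gene lists and the tests were chosen with earlier results of these data known. Of the 714, 78 stood in more than 1 event, 32 overlapped another short exon, 110 genes had more than 1, and 10 had the same reads as another. Python 3.11.15, pandas 2.3.3, NumPy 2.4.6 and SciPy 1.17.1 were used, and the steps were tested on simulated data. Alternatives are given in the closing section.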

Additional observations from a re-analysis of the deposited data

Results flagged for a closer look

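Some short exons left out for too few reads had large differences in Ψ. The 5 with the highest Bayes factors in the authors' deposited table are given here. All 5 had too few reads in the SSE mimetic set alone, so their direction cannot be read. PABPC4, a cytoplasmic poly(A)-binding protein, had a 73-nt exon with a difference of -0.61 (Ψ 0.34, 0.15 to 0.63, in the SSE mimetic set against 0.95, 0.86 to 1.00), from 6 inclusion reads against 134 and no skipping read. SACM1L, a phosphoinositide phosphatase, had a 40-nt exon of the 5′ UTR with a difference of 0.67, from 2 inclusion and 0 skipping reads against 0 and 24. MINDY3, a deubiquitinase, had a 52-nt exon with a difference of -0.55, from 2 inclusion and 1 skipping reads against 34 and 0. AGAP6 had a 69-nt exon with a difference of -0.67, and CCP110, a centriole protein, a 60-nt exon with a difference of -0.64, both with 0 inclusion reads in the SSE mimetic set, against 21 and 27, and no skipping read in either set.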

How the results depend on the processing

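Of the short exons, 3 were called higher and 6 lower. The higher count was 6 with a Bayes factor of at least 5, 0 with Fisher's exact test in place of the Bayes factor and 6 with the read minimum in the scrambled set alone, a setting chosen after seeing the data. The lower count was 3 with at least 20 reads per set, 3 with a Bayes factor of at least 100, 0 with Fisher's exact test, 2 when Ψ was replaced by the inclusion share, 2 with a Ψ computed from junction reads and their start positions, 2 with at least 1 skipping read required and 30 with the read minimum in the scrambled set alone. The exons called by inclusion share, and by junction Ψ, were those of CCDC43, GNAS, GTF2H2C and GTF2I; both settings kept the Bayes factor of at least 10, which 9 short exons reached, all called by Ψ, so no other exon could be called. With a Bayes factor of at least 100 the 5 called were GTF2I, HSPA9, PSMA4, SPINT2 and VCL. In the other settings run (at least 5 reads, a difference of 0.2, other choices of event, intervals apart, lengths of 31 to 70 nt, 1 exon per gene) both counts stayed within 1.5 times of 3 and 6. The median difference in Ψ ranged from -0.04 to 0.00, and no short exon passed the adjusted Fisher's exact test in any setting run. No paired analysis was possible because the deposited columns hold 1 read set per group, and for the same reason no setting without a replicate could be run. Depth limits the SSE mimetic set most, where the median short exon had 18 isoform-specific reads.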
